A study of Mus musculus with 2 samples.

Results

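Genes that encode histone and DNA modifying enzymes were followed from mouse bone marrow monocytes to macrophages. They were chosen by symbol, whatever their values: numbered members of the Hdac, Sirt, Kdm, Kmt, Dnmt, Tet, Prmt, Kat, Setd and Ezh families, leaving out Kdm5c and Kdm5d. That gave 76 of the 47643 genes in the deposited table. Of the 76, 73 are enzyme genes or close relatives, and 3 are the antisense RNAs Dnmt3aos, Dnmt3bos and Kdm6bos. Of the relatives, Dnmt3l encodes a catalytically inactive partner of the DNA methyltransferases, and Kdm4dl is an unprocessed pseudogene in GENCODE M21. One library came from macrophages grown out of bone marrow monocytes with lysophosphatidic acid (LPA), a lipid that signals through cell-surface receptors, and the other from bone marrow monocytes, both from wild-type C57BL/6 mice aged 6 weeks. There was 1 library per group, and a culture without LPA is not analysed here, so LPA, culture and differentiation cannot be told apart, and differences have no replicate check.

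Histone tails and DNA carry small chemical groups that mark chromatin as open or closed to transcription. Methyltransferases and acetyltransferases write these marks, demethylases and deacetylases remove them, and many of these enzymes also act on proteins other than histones. In myeloid cells the marks on enhancers are rebuilt as progenitors become monocytes and macrophages. DNA methylation is copied to the new strand at replication by Dnmt1, whereas Dnmt3a and Dnmt3b methylate DNA anew and the Tet enzymes oxidise the methyl group.

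The macrophage library held 16726342 and the monocyte library 12473180 unique exon reads. Levels are given as CPM, the reads of a gene per 1000000 unique exon reads of its library, and as the deposited RPKM, which also divides by exon length, where genes are compared with each other. The library labels were met by their markers: 9 of 9 macrophage genes were at least 2-fold higher in macrophages and 6 of 6 classical monocyte genes at least 2-fold lower. Genes of cell division were lower in 21 of 22 cases, with Mki67 at 109.0 CPM in macrophages and 1048 CPM in monocytes, and of 5 stem and progenitor genes 4 were lower, with Myb at 9.86 CPM in macrophages and 251.3 CPM in monocytes. The cell division list summed to 1345 CPM in macrophages and 6323 CPM in monocytes, and the 12 neutrophil and granule genes to 6251 CPM in macrophages and 29112 CPM in monocytes, with 9 of the 12 lower and 3, Mmp8, Cxcr2 and Retnlg, higher. Of 6 erythroid genes all were lower, at a sum of 2.81 CPM in macrophages and 135.3 CPM in monocytes, with Hbb-bs, Slc4a1, Car1 and Klf1 at 0 reads in macrophages. All 4 megakaryocyte genes were higher, at a sum of 406 CPM in macrophages and 92.0 CPM in monocytes. Of 5 eosinophil, basophil and mast cell genes 3 were lower and none higher (354 and 2334 CPM). Among genes at 5 CPM or more, stromal and endothelial genes were 2 higher and 3 lower, and dendritic genes 1 higher and 2 lower. B lineage genes were 3 lower and none higher, and T and NK genes 1 higher and 1 lower. The part of these cells in the results on the enzymes was not tested. In bulk RNA, fewer cells of a type and less RNA per cell cannot be told apart.

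Most of the enzyme genes, like most genes at 5 CPM or more, differed by less than 2-fold between the libraries. A few differed strongly and in opposite directions within a family. Of the 76, 66 reached 5 CPM in at least 1 library. By log2(CPM + 1), 5 of the 66 were higher in macrophages by 2-fold or more, 16 were lower by as much and the remaining 45 differed less. Among all 10407 genes at that level, 13.8% were higher and 19.9% lower, or 33.8% past 2-fold either way. These shares are also the background for the counts per class and per list below. The members' shares were 7.58% higher and 24.2% lower, the second of which lies near the background. Their median log2 ratio was -0.38, against -0.23 for all genes. After centring on the median of all genes, 6 members were higher and 7 lower (background 17.4% and 14.6%), so that 46.2% of the members past 2-fold were higher in macrophages, in place of 23.8% before centring (all genes 54.3% in place of 41.0%). The 9 lower members that centring brought within 2-fold were Hdac1, Hdac7, Kat7, Kdm2b, Prmt3, Setd1a, Setd8, Sirt1 and Tet2, whose log2 ratios lay between -1.22 and -1.05.

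**Figure D1:**
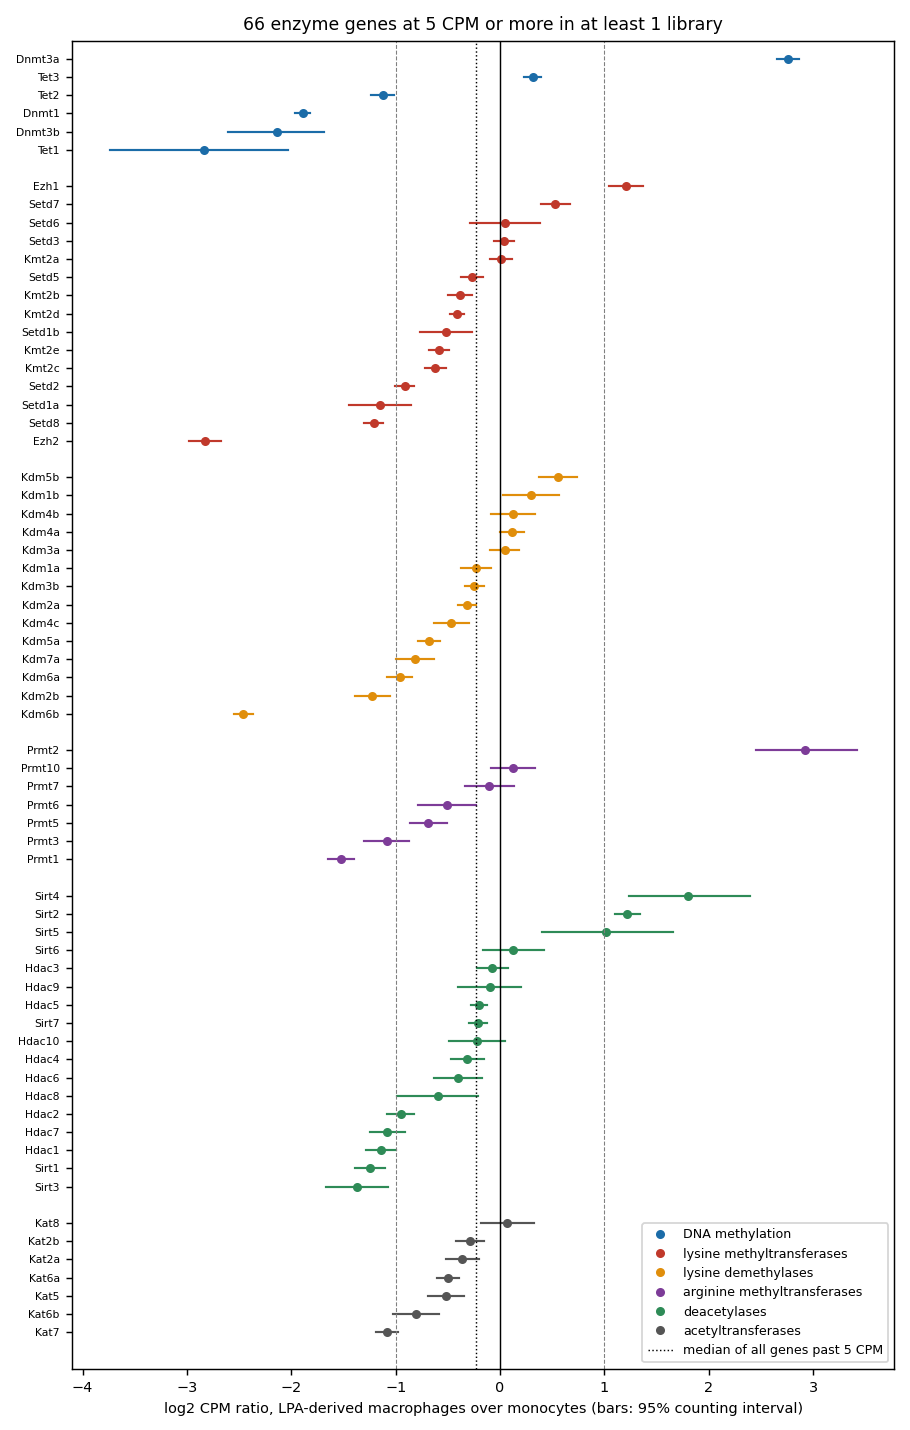
Log2 CPM ratio of macrophages over monocytes for the 66 genes at 5 CPM or more in at least 1 library, by enzyme class; bars are 95% counting intervals, dashed lines mark 2-fold and the dotted line the median of all genes (-0.23). Dnmt3a and Prmt2 lie far to the right of the other genes of their classes and Ezh2 and Kdm6b far to the left, while Dnmt1, Dnmt3b and Tet1 lie to the left together.

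The DNA methyltransferase genes changed places. Dnmt3a (chromosome 12, 3806007 to 3914443, GRCm38) had 7600 exon reads (454 CPM) in macrophages and 839 (67.3 CPM) in monocytes, 6.76-fold higher in macrophages (95% counting interval 6.29 to 7.26). Dnmt1 (chromosome 9, 20907206 to 20959888) had 1967 reads (118 CPM) in macrophages and 5442 (436 CPM) in monocytes, 3.71-fold lower in macrophages (3.52 to 3.91). Per length, Dnmt3a stood above Dnmt1 in macrophages, at 24.0 and 16.4 RPKM, and far below it in monocytes, at 3.39 and 58.1 RPKM. The ratio of Dnmt3a to Dnmt1, which no scaling between libraries can alter, was 1.46 in macrophages and 0.0584 in monocytes, a 25.1-fold difference (22.95 to 27.4). Dnmt3b, the other enzyme that methylates DNA anew, was at 0.547 RPKM in macrophages and 2.29 RPKM in monocytes, 4.40-fold lower (3.22 to 6.11), with 53 reads in macrophages and 174 in monocytes. Dnmt3l stayed below 5 CPM, with 11 and 17 reads in macrophages and monocytes.

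The reads over introns, which come largely from unspliced RNA, showed the same directions for Dnmt3a and Dnmt1. Dnmt3a had 1372 intron reads in macrophages and 96 in monocytes (10.7-fold higher, 8.66 to 13.2), and Dnmt1 had 179 in macrophages and 546 in monocytes (4.09-fold lower, 3.45 to 4.87). All intron reads together were 9.90% of exon plus intron reads in macrophages and 14.1% in monocytes. An intron ratio of 0.667 is thus the level of the library as a whole. Dnmt3b had only 16 intron reads in each library, a ratio of 0.746 (0.349 to 1.59), not below that level. The antisense RNA Dnmt3aos, which shares 133 bases of exon with Dnmt3a, had 17 reads in macrophages and 0 in monocytes. Set against 3 reads in the monocyte library, the 17 would be 4.23-fold higher, a value that leaves out the counting error of the 17. The labels do not say if counting was by strand, so reads of Dnmt3a and Dnmt3aos in that stretch cannot be told apart.

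The Tet genes, whose products start the removal of DNA methylation, were led by Tet3 in macrophages. Tet2, often mutated in myeloid disease, was 2.18-fold lower (2.02 to 2.35), at 67.9 CPM in macrophages and 148 CPM in monocytes. Tet1 was scarce, with 15 reads in macrophages and 80 in monocytes (7.15-fold lower, 4.09 to 13.4). Tet3 lay within 2-fold at 198 CPM in macrophages and 160 CPM in monocytes. Tet3 and Tet2 were close in monocytes, at 11.2 and 10.6 RPKM, and stood at 14.6 and 5.08 RPKM in macrophages. Among members with at least 50 junction reads, only Tet3 had junction and exon ratios that differed by 2-fold or more. Its exon-exon junction reads were lower in macrophages (143, against 184 in monocytes, 1.73-fold lower, 1.38 to 2.16) while its exon reads were 1.24-fold higher (1.17 to 1.31). Junction reads were 4.31% of Tet3 exon reads in macrophages and 9.24% in monocytes, while over all genes they were 44.0% in macrophages and 46.4% in monocytes.

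The paired catalytic subunits of Polycomb repressive complex 2 (PRC2), which methylates histone H3 at lysine 27 and so silences genes, also changed places. Ezh2 (chromosome 6, 47530139 to 47595341) had 394 reads (23.6 CPM) in macrophages and 2084 (167 CPM) in monocytes, 7.09-fold lower (6.37 to 7.92). Ezh1 (chromosome 11, 101191115 to 101226463), the subunit known from resting cells, had 1298 reads (77.6 CPM) in macrophages and 420 (33.7 CPM) in monocytes, 2.30-fold higher (2.06 to 2.58). Ezh1 was at 9.19 RPKM and Ezh2 at 3.11 RPKM in macrophages, against 3.80 and 21.01 RPKM in monocytes. The Ezh1 to Ezh2 ratio was thus 2.96 in macrophages and 0.181 in monocytes, a 16.3-fold difference (14.0 to 19.1), while their sum was 12.3 RPKM in macrophages and 24.8 RPKM in monocytes. Intron reads of Ezh2 numbered 55 in macrophages and 214 in monocytes, and those of Ezh1 142 in macrophages and 43 in monocytes.

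**Figure D2:**
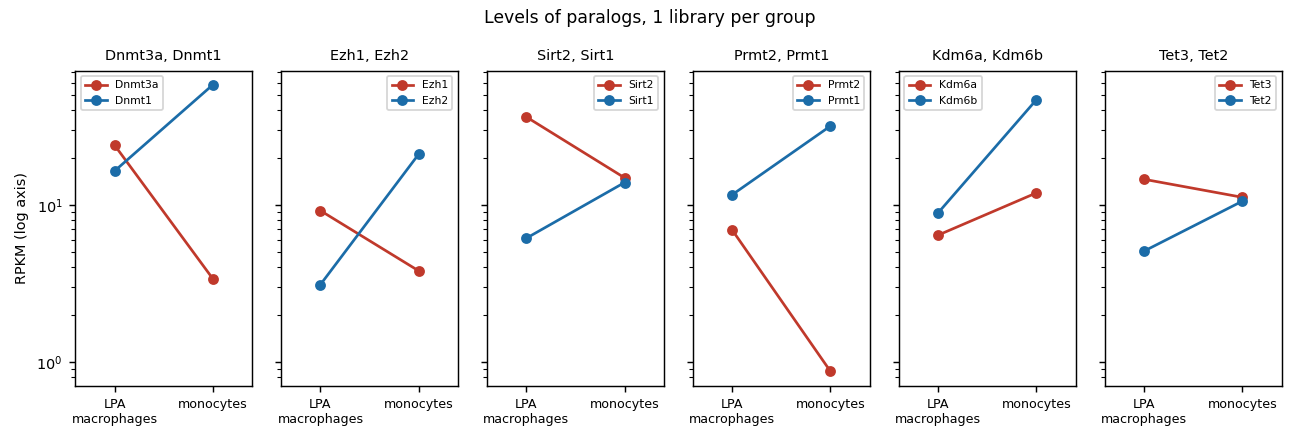
Level in RPKM (log axis) of 6 pairs of related enzymes in the macrophage and the monocyte library; each point is 1 library. The lines of Dnmt3a and Dnmt1 and of Ezh1 and Ezh2 cross, and Kdm6b and Prmt1 stay above Kdm6a and Prmt2 in both libraries.

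Since Ezh2 and Dnmt1 are known to be transcribed with replication genes under E2F factors, the promoter windows of these genes are shown beside that of Ezh1. The windows run from 250 bases before to 50 after an annotated start (RefSeq, GRCm38.p6), and capitals mark the E2F-type letters TTTCCCGC or TTTGGCGC on either strand. The Ezh2 window lies at chr6:47594981-47595280, the Dnmt1 window at chr9:20952574-20952873 and the Ezh1 window at chr11:101226414-101226713, all on the minus strand.
Ezh2: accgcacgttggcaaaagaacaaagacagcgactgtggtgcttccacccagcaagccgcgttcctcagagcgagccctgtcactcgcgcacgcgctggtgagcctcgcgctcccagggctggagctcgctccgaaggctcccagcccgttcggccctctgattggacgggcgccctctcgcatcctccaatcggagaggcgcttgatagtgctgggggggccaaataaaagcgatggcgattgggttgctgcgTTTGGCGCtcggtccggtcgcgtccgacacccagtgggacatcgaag
Dnmt1: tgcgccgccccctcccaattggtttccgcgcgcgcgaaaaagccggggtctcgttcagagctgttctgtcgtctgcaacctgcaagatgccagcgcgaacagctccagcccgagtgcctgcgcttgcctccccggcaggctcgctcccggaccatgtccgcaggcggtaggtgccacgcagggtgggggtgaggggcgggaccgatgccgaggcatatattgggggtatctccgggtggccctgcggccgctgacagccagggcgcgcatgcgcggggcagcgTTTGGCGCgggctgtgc
Ezh1: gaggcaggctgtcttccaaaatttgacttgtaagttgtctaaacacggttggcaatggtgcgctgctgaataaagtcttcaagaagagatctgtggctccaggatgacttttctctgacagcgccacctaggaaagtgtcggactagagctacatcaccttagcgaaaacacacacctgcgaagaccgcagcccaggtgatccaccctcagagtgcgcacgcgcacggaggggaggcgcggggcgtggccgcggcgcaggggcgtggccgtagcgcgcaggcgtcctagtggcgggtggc

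Ezh2 and Dnmt1 each held 1 such match, starting at base 254 and base 284 of the 300, and the Ezh1 window held none. The other 2 Dnmt1 windows, at starts further upstream, and the 3 Dnmt3a windows held none. Windows were found for 61 members, 87 windows in all, of which 3 (3.45%) held the letters, against 1.56% of all 32851 windows. The third was that of Sirt4, a member higher in macrophages. By direction, the letters were held by 2 of 14 lower members with a window, 1 of 5 higher members and 0 of 35 within 2-fold. TGACGTCA was found in 1 member window (1.15%, all windows 1.79%), TCACGTGA in 4 (4.60%, all windows 0.974%), CCGGAAGT in 6 (6.90%, all windows 3.89%) and CCAAT in 34 (39.1%, all windows 37.4%), each on both strands. A match describes letters and is not evidence of binding.

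The other lysine methyltransferases lay mostly near equal levels. Of 15 past the floor of 5 CPM, Ezh1 and Ezh2 included, 11 lay within 2-fold, with log2 ratios between -0.91 and 0.52. Setd8 (Kmt5a in GENCODE M21), which places the single methyl group on histone H4 lysine 20 during the cell cycle, was the most abundant of the class, at 20.7 RPKM in macrophages and 45.6 RPKM in monocytes, 2.31-fold lower (2.18 to 2.46). Setd1a, which methylates histone H3 lysine 4 at promoters, had 156 reads in macrophages and 258 in monocytes, 2.22-fold lower (1.81 to 2.72). Neither was past 2-fold after centring. All 5 Kmt2 genes, whose products also methylate histone H3 lysine 4 or, for Kmt2e, bind it, lay within 2-fold. Kmt2a was nearest to a ratio of 1, at 104.1 CPM in macrophages and 103.7 CPM in monocytes. Setd2, the histone H3 lysine 36 methyltransferase, stood at 97.8 CPM in macrophages and 184 CPM in monocytes, and Setd7 at 75.3 CPM in macrophages and 52.2 CPM in monocytes. Setd4 was below the floor, at 4.54 CPM in macrophages and 3.69 CPM in monocytes.

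Among the lysine demethylase genes Kdm6b had the largest difference between the libraries. Kdm6b (chromosome 11, 69398508 to 69413675) encodes a demethylase of histone H3 lysine 27, the residue that Ezh1 and Ezh2 methylate, and is known as an inducible gene in macrophages. It had 1178 reads (70.4 CPM) in macrophages and 4834 (388 CPM) in monocytes, 5.50-fold lower (5.16 to 5.87), with 81 intron reads in macrophages and 293 in monocytes. Its exons share 286 bases with Kdm6bos, which had 0 reads in both libraries. Kdm6a, which removes the same mark, was 1.95-fold lower (1.80 to 2.11), at 59.5 CPM in macrophages and 116 CPM in monocytes. Kdm6b was thus 1.39 times the level of Kdm6a per length in macrophages and 3.92 times in monocytes. Kdm2b, a demethylase that also recruits a variant Polycomb repressive complex 1 to CpG islands, was 2.34-fold lower (2.08 to 2.62), at 28.5 CPM in macrophages and 66.5 CPM in monocytes, and within 2-fold after centring.

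The other 12 demethylase genes past the floor lay within 2-fold, with log2 ratios between -0.95 and 0.54. Kdm5b, a demethylase of histone H3 lysine 4, was the furthest towards macrophages, at 42.7 CPM in macrophages and 29.1 CPM in monocytes. Kdm3a, which acts on histone H3 lysine 9, was nearest to a ratio of 1, at 63.1 CPM in macrophages and 61.3 CPM in monocytes. Kdm8 lay just below the floor at 1.97 CPM in macrophages and 4.89 CPM in monocytes. Kdm4d had 0 exon reads in macrophages and 1 in monocytes, and Kdm6bos and Dnmt3bos had 0 in both. For these a count of 0 allows up to 0.179 CPM in macrophages and 0.241 CPM in monocytes. The pseudogene Kdm4dl is listed with an exon length of 0, so its 0 exon reads set no such limit.

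Among 7 arginine methyltransferase genes past the floor 1 was higher and 2 were lower. Prmt2 (chromosome 10, 76207222 to 76237865), whose product has weak methyltransferase activity and acts as a coactivator of nuclear receptors, had 416 reads (24.9 CPM) in macrophages and 41 (3.29 CPM) in monocytes, 7.57-fold higher (5.48 to 10.7). Prmt1, the main enzyme of asymmetric arginine methylation, had 756 reads (45.2 CPM) in macrophages and 1619 (130 CPM) in monocytes, 2.87-fold lower (2.63 to 3.13). Prmt1 stayed the more abundant of the pair, at 11.6 RPKM against 6.90 RPKM for Prmt2 in macrophages, and at 31.8 RPKM against 0.869 RPKM in monocytes. Prmt3, which methylates a ribosomal protein, was 2.12-fold lower (1.83 to 2.47) and within 2-fold after centring. Prmt7 was nearest to a ratio of 1, at 20.7 CPM in macrophages and 22.2 CPM in monocytes, and Prmt5, Prmt6 and Prmt10 (Prmt9 in GENCODE M21) also lay within 2-fold. Prmt8, known as a brain gene, had 0 exon reads in both libraries.

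Of 7 sirtuin genes, whose products are deacetylases and deacylases that use NAD, 2 were higher, 2 were lower and 3 lay within 2-fold. Sirt2, a mainly cytoplasmic deacetylase, was the highest deacetylase gene in macrophages at 36.3 RPKM, against 14.9 RPKM in monocytes, with 147 CPM in macrophages and 63.2 CPM in monocytes (2.33-fold higher, 2.15 to 2.52). Sirt1, a nuclear deacetylase, was 2.37-fold lower (2.15 to 2.62), at 37.1 CPM in macrophages and 88.1 CPM in monocytes. The Sirt2 to Sirt1 ratio per length was 5.92 in macrophages and 1.07 in monocytes. The intron reads of Sirt2 numbered 452 in macrophages and 310 in monocytes, 1.09-fold higher (0.939 to 1.26), a smaller difference than that of its exon reads.

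The mitochondrial sirtuins did not move as a group. Sirt4 was 3.47-fold higher (2.36 to 5.26) from few reads, 149 in macrophages and 32 in monocytes, and Sirt5 stood at 84 and 31 reads in macrophages and monocytes, 2.02-fold higher as a plain ratio (1.32 to 3.16) and below 2-fold on the log2(CPM + 1) scale. Sirt3 was 2.59-fold lower by exon reads (2.11 to 3.19), with 145 reads in macrophages and 280 in monocytes. Its reads assigned to introns numbered 286 in macrophages and 310 in monocytes, 1.45-fold lower (1.23 to 1.71). With gene reads Sirt3 no longer passed 2-fold. The deposited exon length of Sirt3 is 26.3% and that of Sirt5 22.4% of the exon bases annotated in GENCODE M21, and Sirt3 shares 418 exon bases with Ric8a. The part of either in these values was not tested. Sirt6 and Sirt7 lay within 2-fold.

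Of 10 Hdac genes past the floor, 8 lay within 2-fold and 2 were lower, Hdac1 and Hdac7, neither past 2-fold after centring. Hdac1, a class I enzyme of several corepressor complexes, was 2.20-fold lower (2.00025 to 2.43), at 39.9 CPM in macrophages and 88.0 CPM in monocytes. Its close relative Hdac2 was 1.93-fold lower (1.77 to 2.11), so the Hdac2 to Hdac1 ratio was 0.965 in macrophages and 0.846 in monocytes. Hdac3, the enzyme of the NCoR and SMRT corepressors, was nearest to a ratio of 1, at 51.7 CPM in macrophages and 54.4 CPM in monocytes. Of the class IIa genes, Hdac7 was 2.12-fold lower (1.89 to 2.38), while Hdac5 stood at 168 CPM in macrophages and 193 CPM in monocytes. Hdac4 and Hdac9 lay within 2-fold by exon reads, but their intron reads were fewer in macrophages, 136 against 388 in monocytes for Hdac4 and 30 against 88 for Hdac9. The deposited exon length of Hdac4 is 56% and that of Hdac9 30.2% of the exon bases annotated in GENCODE M21. The part of this in their intron values was not tested. Hdac11 was below the floor, with 41 reads in macrophages and 8 in monocytes.

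Of 7 lysine acetyltransferase (Kat) genes, 6 lay within 2-fold and Kat7 (the HBO1 enzyme, which acetylates histone H3 and H4 and takes part in replication licensing) was 2.12-fold lower (1.97 to 2.27), at 75.2 CPM in macrophages and 159 CPM in monocytes. After centring none of the 7 was past 2-fold. Kat8, which acetylates histone H4 lysine 16, was nearest to a ratio of 1, at 18.8 CPM in macrophages and 17.96 CPM in monocytes. The remaining 5, Kat2a, Kat2b, Kat5, Kat6a and Kat6b, had log2 ratios between -0.77 and -0.28.

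**Figure D3:**
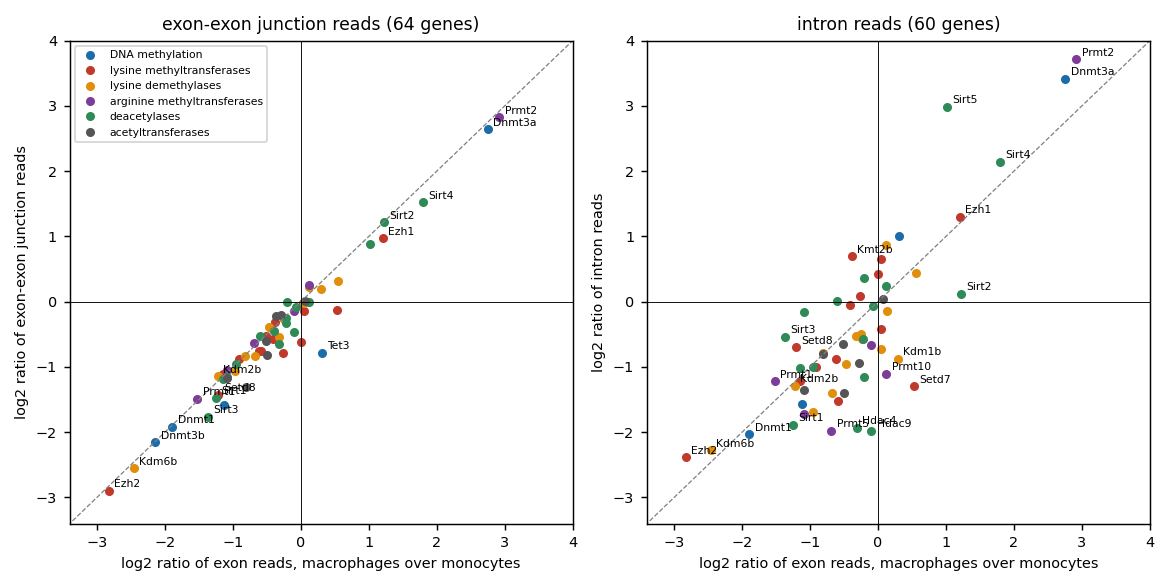
Log2 ratio of macrophages over monocytes by exon-exon junction reads (left, 64 genes) and by intron reads (right, 60 genes) against that by exon reads, for members with at least 50 reads of the class in all; colours mark enzyme classes and the dashed line equality. Junction reads follow exon reads closely except for Tet3, and intron reads scatter more widely.

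Junction and intron reads gave the same directions as exon reads for the members past 2-fold with at least 50 such reads. With at least 50 junction reads in all, 5 of 5 higher and 15 of 15 lower members kept their direction, 4 and 15 of them past 2-fold. With at least 50 intron reads, 5 of 5 and 14 of 14 kept it, 4 and 11 of them past 2-fold. Over all members with that many reads, 56 of 64 by junction and 50 of 60 by intron reads kept their direction. All intron reads together had a ratio of 0.667, so a ratio below 1 is usual. The lower members Hdac7 (0.901) and Sirt3 (0.688) did not lie below 0.667. The lower members Tet1 and Dnmt3b were left out by the cut on intron reads. Tet1, with 9 intron reads in macrophages and 4 in monocytes, went the other way. Dnmt3b, with 16 in each library, had a ratio of 0.746 (0.349 to 1.59), also not below 0.667. Junction and intron reads come from the same libraries and are not independent samples. In the authors' deposited table, 48 of the 66 members (72.7%) have an FDR-corrected p below 0.05 by Baggerley's test, against 80.8% of all 10407. With 1 library a group, such a p speaks of these libraries and not of the conditions.

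Most partners of PRC2 were lower, as Ezh2 was. Of 9, 6 were at least 2-fold lower (4 after centring), 1 was higher and the median log2 ratio was -1.11, against -0.23 for all genes. Phf19, an accessory subunit, was 5.36-fold lower (4.17 to 6.97), Jarid2, another, 3.62-fold (3.34 to 3.92), the core subunit gene Suz12 2.79-fold (2.60 to 2.99) and the histone chaperone gene Rbbp4 2.57-fold (2.41 to 2.74). The exception was Phf1, an accessory subunit in other assemblies of the complex, at 55.1 CPM in macrophages and 22.9 CPM in monocytes, 2.40-fold higher (2.10 to 2.75).

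Of 13 partners and readers of DNA methylation past the floor, 3 were lower and 1 higher (median -0.31), and after centring 2 were lower, without Mbd4, and 1 higher. Before centring that was 23.1% lower and 7.69% higher, against 19.9% and 13.8% of all genes. Uhrf1, which brings Dnmt1 to newly replicated DNA, stood at 26.5 CPM in macrophages and 222 CPM in monocytes, 8.37-fold lower (7.57 to 9.28). Hells, a chromatin remodeller needed for DNA methylation, was 8.08-fold lower (6.81 to 9.63) and Mbd4, a glycosylase, 2.53-fold lower (1.99 to 3.23), while the uracil glycosylase gene Smug1 was 3.90-fold higher (2.70 to 5.77). The median of the cell division list was -2.74, and its part in these values was not tested.

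Of 19 lysine methyltransferase genes with other names past the floor 5 were lower (4 after centring) and none higher (median -0.49). The share lower was 26.3%, against 19.9% of all genes. The 5 were led by Suv39h2 (9.46-fold, 5.75 to 16.5, from 18 reads in macrophages and 127 in monocytes) and Suv39h1 (4.43-fold, 3.53 to 5.59). Both methylate histone H3 lysine 9. Next were Setdb2 (3.89-fold) and Whsc1, the NSD2 gene (3.46-fold). By intron reads Suv39h2, with 81 in macrophages and 86 in monocytes, had a ratio of 0.702 (0.512 to 0.963). That is not below the 0.667 of all intron reads together. Its fold deposited by the authors was -2.66. Among 9 other acetyltransferase genes only Hat1, which acetylates newly made histone H4, was past 2-fold, also after centring, at 39.3 CPM in macrophages and 105.5 CPM in monocytes. Of 5 other demethylase genes Jmjd6 was lower by 2.22-fold, and none was past 2-fold after centring. Of 4 other arginine modifying enzymes 2 were lower, the deiminase gene Padi2 (6.41-fold) and Ndufaf7 (3.65-fold), whose product methylates a mitochondrial complex I subunit, and after centring 2 were lower and 1 was higher.

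Of 24 genes of HDAC corepressor complexes past the floor 21 lay within 2-fold (median -0.47), Ing2 and Sap30 were lower, and Chd3, a remodeller of the NuRD complex, was 2.53-fold higher (2.33 to 2.76). After centring Sap30 was within 2-fold. Of 11 partners of the histone H3 lysine 4 methyltransferases 4 were lower, Psip1, Paxip1, Hcfc1 and Dpy30 (median -0.88), and 3 after centring, without Dpy30. Of 10 acetyl-lysine readers 3 were lower, Brd8, Brpf1 and Brd9 (median -0.65), and after centring 1, Brd8. Of 16 enzymes that supply or recycle cofactors 3 were lower and 2 higher (median -0.37). Before centring these lists, in order, had 8.33%, 36.4%, 30% and 18.8% of genes lower, against 19.9% of all genes. The shares higher were 4.17%, 0%, 0% and 12.5%, against 13.8% of all genes. The isocitrate dehydrogenase genes, whose product 2-oxoglutarate is a cosubstrate of the Tet and most Kdm enzymes, went opposite ways: Idh1 stood at 396 CPM in macrophages and 154 CPM in monocytes, and Idh2 at 66.1 CPM in macrophages and 168 CPM in monocytes. Ahcy, which clears the by-product of methyl transfer, was 4.07-fold lower (3.39 to 4.90).

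**Figure D4:**
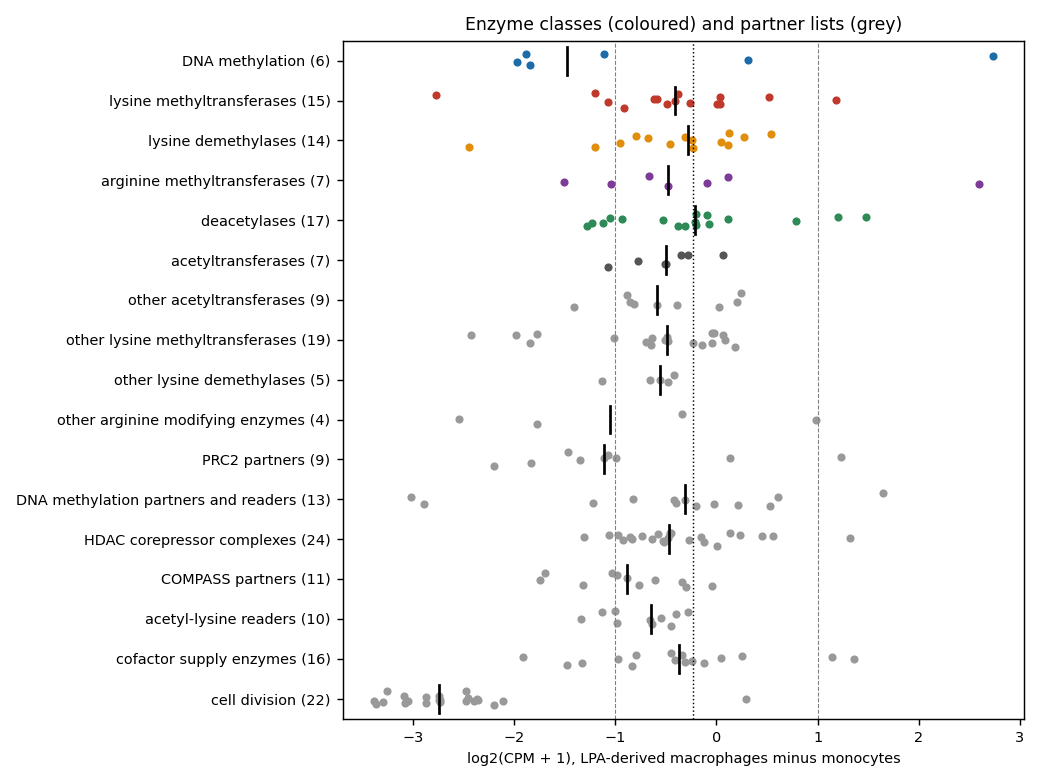
Difference in log2(CPM + 1), macrophages minus monocytes, for genes past 5 CPM in each enzyme class (coloured) and reported partner list (grey), with the number of genes in brackets; black bars are medians, dashed lines mark 2-fold and the dotted line the median of all genes. The DNA methylation class, the PRC2 partners and the cell division list have medians of -1.48, -1.11 and -2.74.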

How the data were processed

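The deposited table holds, per the file headers, whole-number counts of reads per gene by class (gene, exon, exon-exon junction and intron), RPKM, normalized signal and exon length for each library. The RPKM values deposited by the authors were recomputed from exon reads, exon length and a single library total, and 0 genes differed by over 1%. The authors' normalized signal was used only for ratios between paralogs, and the deposited fold change, a signed score, and the FDR-corrected p-value of Baggerley's test are quoted as the authors' values. The labels name no mapper. The build was mm9, per the submitters' processing notes, but 76 of 76 member identifiers were found in GENCODE M21 (GRCm38) and 64 had the same position once the 0-based starts in the file were counted from 1.

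The deposited exon length was under 80% of the exon bases in GENCODE M21 for 15 members. These were Hdac4, Hdac9, Kat5, Kdm3b, Kdm4dl, Kdm5b, Kmt2e, Setd5, Setd7, Setd8, Sirt2, Sirt3, Sirt5, Tet2 and Tet3. The part of this in their RPKM and intron values was not tested. Unique exon reads were scaled to CPM by their total. Genes at 5 CPM or more in at least 1 library were kept (83.6 reads in macrophages, 62.4 in monocytes) and called at 2-fold by log2(CPM + 1). For members, 0 exon reads were classed as not unique, so reads shared with copies are not counted; Hdac1 has a pseudogene, Hdac1-ps, with 0 reads in macrophages and 5 in monocytes. Folds are plain CPM ratios with exact Clopper-Pearson 95% intervals conditional on the sum, and ratios between paralogs have a normal interval on the log scale. Intervals and the floor of 3 reads cover counting error only. No test was made, since 1 library per group allows none. TMM factors came from edgeR 4.0.16 in R 4.3.3, intervals from scipy 1.17.1. The calculation was tested on simulated data.

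The members and lists were chosen with earlier results of these data known. Named genes are every member past 2-fold, the most abundant member of each class and the one nearest to a ratio of 1, and up to 4 genes past 2-fold per list; other names were chosen after their values were seen. The alternatives were other pseudocounts, floors, scalings, read classes and fold thresholds. Alternatives for the ratios between paralogs were chosen after seeing the data. One result on a partner list, whose median log2 ratio was 0.10 and so above that of all genes, is not reported here.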

Additional observations from a re-analysis of the deposited data

How the results depend on the processing

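No paired analysis was possible because each group has 1 library. Of the 21 members past 2-fold, 7 were so under each of the 11 alternatives that kept the 2-fold threshold. These were Dnmt3a, Ezh1 and Sirt2, higher, and Dnmt1, Ezh2, Kdm6b and Prmt1, lower. Some of the 11 could not remove a call: the pseudocount of 0.5, the floor of 1 CPM, no floor, and total exon reads. Total exon reads had the same sum as unique exon reads in both libraries. None of the 21 changed direction under any of the 11, which did not include intron reads alone. By intron reads Tet1 went the other way, with 9 in macrophages and 4 in monocytes. The count of lower members was 16, and it was 7 after centring on the median of all genes, 8 with TMM factors, 10 when the 20 highest genes of each library were left out of the totals, 7 by the fold change the authors deposited and, last, 5 at a fold of 3; under the other alternatives it was 12 to 24. The count of higher members was 5, and it was 3 at a floor of 25 CPM, 2 at a fold of 3, 7 at a floor of 1 CPM and with no floor (Dnmt3aos and Hdac11 added), 6 at a fold of 1.5, after centring, with gene reads and by the authors' deposited fold, and 4 or 5 otherwise. The median log2 ratio of the members, -0.38, was -0.39 at a pseudocount of 0.5, -0.34 at a pseudocount of 5, -0.41 at a floor of 25 CPM, -0.31 with no floor, -0.15 after centring, -0.17 with TMM factors, -0.22 without the 20 highest genes, -0.36 with gene reads and -0.16 with the authors' deposited fold change. Centring shifts all values by 0.23; the cause of the other differences was not tested. Ratios with gene, junction and intron reads were run for Ezh1/Ezh2, Dnmt3a/Dnmt1, Dnmt3a/Dnmt3b, Tet3/Tet2, Sirt2/Sirt1, Prmt2/Prmt1 and Kdm6a/Kdm6b. None of these changed direction. The Tet3 to Tet2 difference was 1.44 (log2) by exon reads, 0.79 by junction reads and 2.58 by intron reads. Ratios between Hdac genes were not run this way. Macrophages over monocytes, Hdac5 was at 0.870 and Hdac7 at 0.472 by exon reads, but at 0.448 and 0.901 by intron reads. Depth limits Tet1, Dnmt3b, Sirt4 and Prmt2, each with under 100 reads in at least 1 library.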

Other observations

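Some members had ratios that differed between classes of read. Setd7, a lysine methyltransferase gene, had more exon reads in macrophages (1260, against 651 in monocytes) but fewer intron reads (83 against 152). Kmt2b had more intron reads in macrophages, 150 against 69 in monocytes, 1.62-fold higher (1.21 to 2.19). Its exon reads were 1306 in macrophages and 1271 in monocytes, 1.31-fold lower (1.21 to 1.41) once scaled to CPM. Sirt5 had 53 intron reads in macrophages and 5 in monocytes, 7.90-fold higher (3.18 to 25.3), beside an exon ratio of 2.02.

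For Kmt2a the junction reads were 215 in macrophages and 247 in monocytes (1.54-fold lower, 1.28 to 1.86) at equal exon levels, and for Setd5 they were 299 in macrophages and 386 in monocytes (1.73-fold lower, 1.48 to 2.02). The cause was not tested.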
